A study of Homo sapiens with 16 samples.

Results

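HCT116 is a human colorectal carcinoma line whose known karyotype carries extra copies of the distal long arms of chromosomes 8, 10 and 17. MED1 binding was examined on these 3 gained segments, taken in hg19 from 68 Mb on chromosome 8, 101 Mb on chromosome 10 and 40 Mb on chromosome 17 to each chromosome end. The karyotype and these bounds are background and not results of the series. All overlapping peaks (1 bp or more) of the 6 deposited MED1 peak lists were merged into union regions, and 225 of the 1584 regions start on the segments, with 107 on chromosome 8, 37 on chromosome 10 and 81 on chromosome 17. The comparison set was the 1343 regions on the rest of the autosomes, while 16 regions on X, Y and unplaced sequence were left out. Each member was listed in at least 1 of the 6 lists, and weaker binding than the lists hold is not seen here.

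Mediator is a large complex that links transcription factors on enhancers with RNA polymerase II at promoters. MED1 is the subunit through which many activators contact it, and MED14 is the scaffold that joins its modules. Chromatin immunoprecipitation of MED1 marks active enhancers and promoters, and dense groups of MED1 sites are the usual mark of super-enhancers. A peak caller scores a site by the pileup of immunoprecipitated fragments over a background. In a genome with unequal copy number, extra copies of a region give both the immunoprecipitate and the input more fragments there.

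The 16 samples are 8 MED1 libraries and 8 inputs, all from HCT116. Wild-type (WT) cells had DMSO or Nutlin-3a for 1 h, and each of these 2 conditions has 2 libraries joined in 1 peak list. Nutlin-3a is an MDM2 inhibitor that stabilizes p53. The edited line is labelled CRISPR/Cas9 edited with the genotype OsTir1+/-;Med14-AID+/+, in which an auxin-inducible degron sits on MED14 and OsTir1 is the plant receptor that auxin acts through. These cells received water or 500 µM auxin (IAA) for 3 h, either alone or followed by Nutlin-3a for 1 h, with 1 library and 1 list per condition. The labels do not say whether the edited line is 1 clone, and the karyotype of neither line was measured. Because the lists join or lack replicates, no spread between replicates can be given, and every interval below covers the counting of peaks only. The lists held 1106 (WT DMSO), 1254 (WT Nutlin-3a), 463 (water), 522 (water + Nutlin-3a), 53 (auxin) and 66 peaks (auxin + Nutlin-3a), and the read depth behind them is unknown.

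MED1 regions were denser on the gained segments than on the rest of the autosomes. The segments span 154.1 Mb, or 5.35% of the autosomal length, and held 1.46 regions per Mb (exact Poisson 95% interval 1.28 to 1.66) against 0.492 on the rest, a ratio of 2.96 (2.56 to 3.42). The chromosome 17 segment had 1.97 regions per Mb, the chromosome 8 segment 1.37 and the chromosome 10 segment 1.07. The other parts of the same chromosomes had 1.05, 0.382 and 0.505 regions per Mb, so each segment had more union regions per Mb than the remainder of its own chromosome. By list this did not hold throughout, since the chromosome 17 segment had 0.218 peaks per Mb with water against 0.325 on its remainder, and the chromosome 10 segment 0.145 with water + Nutlin-3a against 0.208. The 19 other autosomes ranged from 0.191 (chromosome 13) to 1.03 regions per Mb (chromosome 19) with a median of 0.478, and 0 of the 19 were denser than any of the segments.

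The excess was not even over segments and lists. In WT DMSO, 175 peaks lay on the gained segments, 3.37 times the density of the rest (2.85 to 3.97), and in WT Nutlin-3a 171 peaks, 2.82 times (2.38 to 3.31). In the MED14-AID line, the water list had 55 gained peaks, 2.42 times the rest (1.79 to 3.21), and water + Nutlin-3a had 63, 2.47 times (1.87 to 3.22). Of the 19 other autosomes, 0 were denser than the 3 segments together in the WT lists. In both water lists chromosome 12 was denser, at 0.411 peaks per Mb against 0.357 (water) and 0.409 (water + Nutlin-3a). With auxin, 3 peaks (1.06 times, 0.212 to 3.29) and, after Nutlin-3a, 8 peaks (2.44 times, 1.01 to 5.14) were left on the segments, too few to read an order.

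The chromosome 8 segment was dense in all 4 lists made without auxin, at 3.41, 2.62, 3.63 and 3.63 times the rest in WT DMSO, WT Nutlin-3a, water and water + Nutlin-3a. The chromosome 17 segment stood at 4.11 and 4.25 times in the WT lists, but at 1.48 (0.671 to 2.83) and 1.61 (0.800 to 2.92) in the water lists, intervals that include 1. The chromosome 10 segment had 2.41 and 1.54 times in the WT lists and 0.784 and 0.875 times in the water lists, from 4 and 5 peaks. Without the chromosome 8 segment, the ratio of the other segments in the water lists was 1.16 (0.613 to 2.01) and, with Nutlin-3a, 1.28 (0.724 to 2.1). The lines also differ in the number of libraries behind a list and of peaks in it, and these cannot be told apart from the line.

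**Figure D1:**
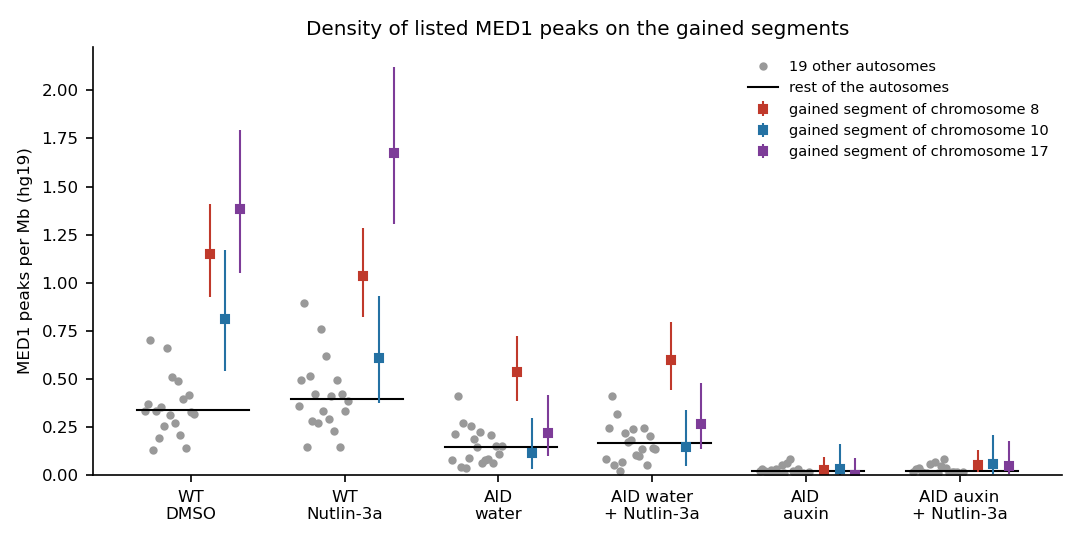
Listed MED1 peaks per Mb (y axis) in the 6 lists (x axis) for the 3 gained segments (squares, bars are exact Poisson 95% intervals), the 19 other autosomes (grey points) and the rest of the autosomes as a whole (black lines). The chromosome 8 and 17 squares lie above all grey points in both WT lists, while in the water lists the chromosome 10 and 17 squares fall among them.

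Within the chromosome 8 segment, MED1 regions were gathered in a short stretch. The 5 Mb from 125 to 130 Mb held 52 of the 107 regions (48.6%), and 0 regions started before 80449075. Distal 8q24, in which this stretch lies, is known for the MYC oncogene and its far-off enhancers, though no gene was assigned to these positions. Regions up to 12500 bp apart were joined into clusters, and 57 of the 107 chromosome 8 regions (53.3%) fell in 11 clusters of 3 or more. On the chromosome 17 segment only 9 of 81 regions (11.1%) did so, and on the rest of the autosomes 30.2%. Over all 3 segments, 109 of 225 regions (48.4%) had a neighbour within that distance, beside 48.7% of the rest. The largest cluster on the segments ran from 128218068 to 128279465 on chromosome 8 (61.4 kb) and joined 12 regions, with 12 peaks in WT DMSO, 10 in WT Nutlin-3a, 12 with water, 9 with water + Nutlin-3a and 1 in each auxin list. Peaks are not sites here, since the region at 128230681 in this cluster held 3 water peaks and that at 128257321 held 2, against 1 each in WT DMSO. The second, at 126648946 to 126677779, joined 7 regions and had 7, 6, 3 and 3 peaks in the same order and none with auxin.

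The densest 10 Mb of the chromosome 8 segment, from 125 to 135 Mb, held 57 of its regions (53.3%). Leaving it out, a choice made after seeing the data, lowered the region ratio from 2.96 to 2.37 (2.00 to 2.78). In the WT lists the ratio stayed above 1, at 2.62 and 2.11. In the water lists it came to 1.03 (0.640 to 1.59) and 1.22 (0.806 to 1.77). The stretch was picked as the densest and nothing was left out of the rest, so a lower ratio was fixed by the choice.

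On chromosome 10, 14 of 37 regions lay between 110 and 115 Mb. They included a cluster of 7 regions at 114135003 to 114164952, with 6 peaks in WT DMSO, 7 in WT Nutlin-3a and 1 in each water list, and one of 4 regions at 114276617 to 114296805, with 3, 4, 2 and 2 peaks. On chromosome 17, 20 of 81 regions lay between 55 and 60 Mb, and no cluster held more than 3 regions. The 3 of that size were at 57859904 to 57865003 (2, 3, 1 and 2 peaks), 66373905 to 66380683 (3, 3, 0 and 0) and 57906341 to 57921989 (2, 5, 2 and 2). These chromosome 10 and 17 clusters had no peak in an auxin list.

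**Figure D2:**
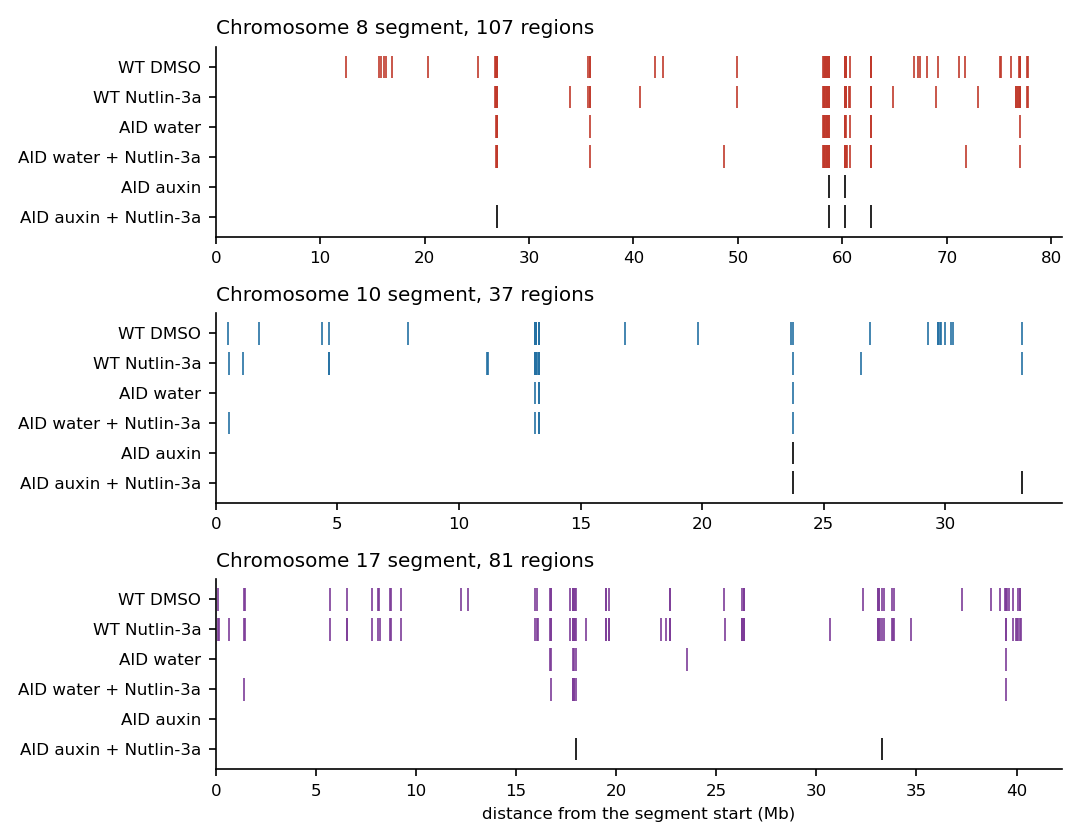
Positions of the listed peaks of the 225 union regions, as distance from the start of each gained segment in Mb (x axis), with 1 row per list and 1 panel per segment, where each tick is a region listed there. The ticks near 60 Mb on the chromosome 8 panel are the stretch with 52 regions, and the chromosome 10 and 17 panels empty out from the WT rows to the water rows.

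The sites with the highest fold in any list were on chromosome 8. The region at 128257321 to 128262462 had a fold over background, as the authors' caller gave it, of 7.25 in WT DMSO, 8.94 in WT Nutlin-3a, 11.03 with water and 8.03 with water + Nutlin-3a, and was in neither auxin list. The region at 128230681 to 128239847 had 5.81, 10.8, 6.07 and 9.39, and stayed listed with auxin (3.395) and auxin + Nutlin-3a (3.72). Both belong to the cluster of 12 regions. The region at 94884904 to 94894346 had 8.44, 9.49, 7.62 and 10.7, and 4.55 with auxin + Nutlin-3a only. The region at 126691246 to 126693623 had 5.55, 8.58, 7.39 and 10.2, then 3.78 and 3.54 with auxin. The region at 130718818 to 130724361 had 7.37, 7.63, 7.22 and 10.0, and 3.47 with auxin + Nutlin-3a. At the 4 of these sites with an auxin fold, it lay below the folds of the same site without auxin. The sites were chosen for their highest fold in any list, so this is a description only.

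The leading sites of the other segments had a lower maximum over the lists, but not in every list. The chromosome 10 region at 134145055 to 134145822 had a fold of 8.10 in WT DMSO, 5.41 in WT Nutlin-3a and 5.89 with auxin + Nutlin-3a, and was absent from both water lists. The one at 124713483 to 124714279 was in all 6 lists, at 7.21, 4.83, 4.86, 3.75, 3.84 and 5.62, so its auxin folds lay inside the range of the others. The region at 114138830 to 114141211 had 6.61, 6.69, 4.79 and 3.89 without auxin, its neighbour at 114141603 to 114144134 had 3.97 and 5.65 in the WT lists alone, and 114278614 to 114279783 had 4.54, 4.98, 4.19 and 5.80. These last 3 were in neither auxin list.

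On chromosome 17, the region at 57969971 to 57970736 had folds of 6.30, 5.03, 3.87 and 4.18 without auxin and 5.51 with auxin + Nutlin-3a. The region at 57914213 to 57917859 had 5.44, 5.31, 3.80 and 4.55. Both were thus listed in all 4 lists without auxin. Fewer lists held the next 3, which had 3.45 and 5.81 in the WT lists and 4.04 with water + Nutlin-3a (57859904 to 57861940), 3.53, 5.75 and, with water, 3.68 (56756544 to 56757417), and 3.32 and 5.72 in the WT lists alone (66379038 to 66380683). The members nearest the bounds were weak. On chromosome 8 the last region before the segment, at 67035966, had folds of 2.56 and 3.401 in the WT lists, and the first inside had 2.42 in WT DMSO alone. On chromosome 10 the last region outside, at 100703867, had 3.07 and the first inside, at 101520100, had 2.05, both in WT DMSO alone. On chromosome 17 the region at 39821912 had 2.69 in WT Nutlin-3a and 3.73 with water, and that at 40118476 inside had 2.89 and 3.39 in the WT lists.

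Peaks on the gained segments had lower median folds than the rest of the same list, although more of them were listed per Mb. The median fold was 2.76 against 3.26 in WT DMSO and 3.02 against 3.47 in WT Nutlin-3a, and in both lists each of the 19 other autosomes had a higher median than the gained segments. It was 4.18 against 4.41 with water, where 9 of the 14 other autosomes with at least 10 peaks lay higher, and 3.73 against 4.28 with water + Nutlin-3a, where 13 of 13 did. The water difference of -0.225 had an interval of -0.726 to 0.110, which includes 0. On the chromosome 10 segment the water median was 4.49, above the rest, from 4 peaks. A fold of 5 or more was reached by 19 of 175 gained peaks (10.9%) against 12.8% of the rest in WT DMSO, and by 24 of 171 (14.0%) against 16.8% in WT Nutlin-3a. With water the same shares were 13 of 55 (23.6%) against 36.2%, and with water + Nutlin-3a 15 of 63 (23.8%) against 32.8%. The highest gained peak of each of these lists, at 8.44, 10.8, 11.03 and 10.7, ranked 22, 16, 14 and 15 in its list.

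The fold was then taken apart. If it is (pileup + 1)/(background + 1), and the listed p is the Poisson tail of a whole pileup at that background, both printed values fix the pileup and the background. A pair that met both values was found for 3464 of 3464 peaks. In these terms the gained peaks had a higher background, in fragments at the summit. Its median was 22.1 against 15.9 in WT DMSO (1.39 times), 23 against 15.7 in WT Nutlin-3a (1.46 times), 10.5 against 6.80 with water (1.54 times) and 11.8 against 7.78 with water + Nutlin-3a (1.52 times). No other autosome with at least 10 peaks had a median background above that of the gained segments in these 4 lists, the highest being 20.4 (chromosome 3), 18.5 (chromosome 21), 8.57 (chromosome 6) and 8.79 (chromosome 3). The pileup was also higher, at 62 against 56, 68.5 against 58.9, 45 against 35 and 46 against 39. The segments were not alike in this. In WT DMSO the chromosome 10 segment had a pileup of 52, below the rest, and a background of 18.97, or 1.19 times the rest and below that of chromosome 3.

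Divided by 1 background, the median of the rest in each list, the gained and other peaks had median folds of 3.72 and 3.37 in WT DMSO, 4.16 and 3.59 in WT Nutlin-3a, 5.90 and 4.62 with water and 5.35 and 4.56 with water + Nutlin-3a. This setting, chosen after the data were seen, only rescales the pileup, so its direction is that of the pileup medians and adds nothing to them. Copy number was not measured.

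**Figure D3:**
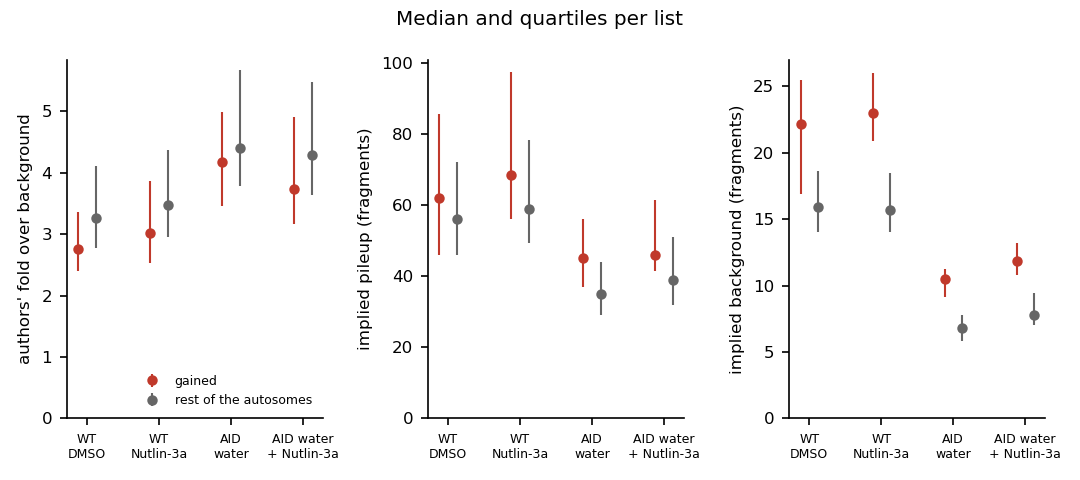
Median (point) and quartiles (bar) of the authors' fold (left), the implied pileup in fragments (middle) and the implied background in fragments (right) for gained peaks (red) and the rest of the autosomes (grey) in the 4 lists without auxin. The red points lie below the grey ones for fold and above them for pileup and background in each list.

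A list holds only what passed its threshold. Under the formulas assumed above, a peak on a higher background needs a higher pileup for the same p and reaches it at a lower fold. How far this sets the medians was not tested. The regions shared by lists were compared as well, which holds the positions fixed. They passed the threshold of each list, so this does not remove the selection. Present in all 4 lists without auxin were 35 gained regions and 249 of the rest. Of the 35, 27 lay on chromosome 8, 4 on chromosome 10 and 4 on chromosome 17, so their medians mostly describe chromosome 8. Where a region held more than 1 peak in a list, the one with the highest fold was used. At these regions the background of the gained ones was 1.46, 1.49, 1.5 and 1.5 times that of the rest in WT DMSO, WT Nutlin-3a, water and water + Nutlin-3a. Their fold was 1.10, 0.999, 0.903 and 0.917 times and their pileup 1.54, 1.37, 1.26 and 1.25 times. At these shared regions the background ratio was thus nearly level over the 4 lists. The fold ratio was above or nearly at 1 in the WT lists and below 1 in the water lists.

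The background varied along each segment. Among WT DMSO peaks also listed in WT Nutlin-3a, the median background was 25.2 inside (59 peaks) and 16.8 outside (12 peaks) on chromosome 8, 24.1 (12) and 15.5 (22) on chromosome 10, and 21.7 (43) and 15.8 (24) on chromosome 17. Within 20 Mb of the start it was 15.9 before (6 peaks) and 24.6 after (10 peaks) on chromosome 10, and 17.3 (14) and 21.7 (26) on chromosome 17. No change at the chromosome 8 start can be read, since only 2 such peaks lie within 20 Mb before it, with a median of 19.5, and none within 20 Mb after it.

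This subset leaves out peaks found in WT DMSO alone, many of which had a low background. Over all WT DMSO peaks, some stretches of the chromosome 8 and 10 segments stood near the rest of the autosomes in that list. On chromosome 8 the median background was 0.908 times the median of the rest at 10 to 20 Mb from the start (6 peaks), 1.47 times at 20 to 30 Mb (13 peaks), 1.30 times at 30 to 40 Mb (3 peaks) and 0.950 times at 40 to 50 Mb (3 peaks). It was 1.58 times at 50 to 60 Mb (26 peaks), 1.60 times at 60 to 70 Mb (26 peaks) and 1.05 times at 70 to 80 Mb (13 peaks). On chromosome 10 it was 1.28 times in the first 10 Mb (5 peaks), 1.5 times at 10 to 20 Mb (11 peaks) and 0.906 times at 20 to 30 Mb (9 peaks). On chromosome 17 it lay between 1.17 and 1.61 times in each stretch of 10 Mb inside. It was also 1.61 times at 4 peaks outside, 10 to 20 Mb before the start, but these were scattered. They stood at 0.781, 1.11, 2.11 and 8.67 times, and those at 2.11 and 8.67 were in WT DMSO alone. The chromosome 10 region at 134145055 had a background of 12.3 in WT DMSO and 12.4 in WT Nutlin-3a, the commonest value of each list. Not all low stretches were low in WT Nutlin-3a. There the ratio was 1.21 at 70 to 80 Mb on chromosome 8 (11 peaks) and 1.51 at 20 to 30 Mb on chromosome 10 (2 peaks). It was 1.09 at 40 to 50 Mb on chromosome 8 (2 peaks) and 0.788 at 30 to 40 Mb on chromosome 10 (1 peak).

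**Figure D4:**
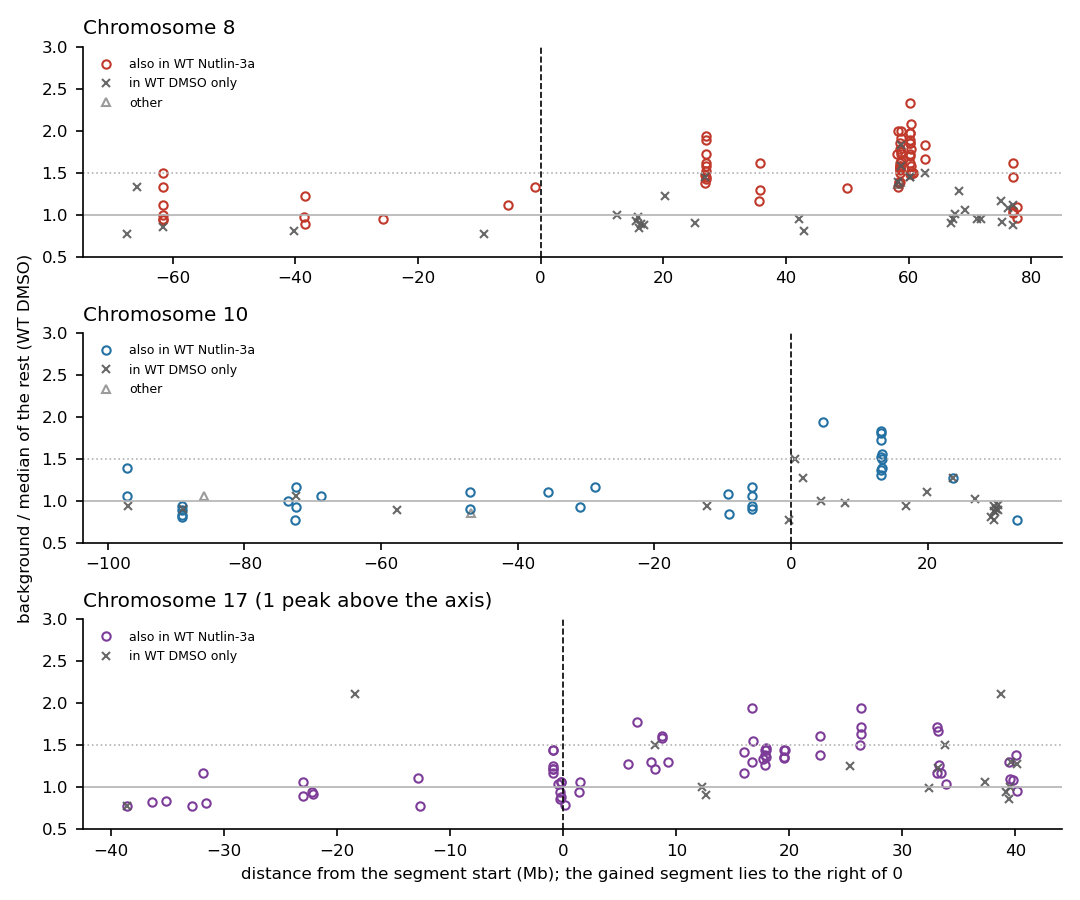
Implied background of WT DMSO peaks on chromosomes 8, 10 and 17, divided by the median of the rest of the autosomes (y axis), against distance from the segment start in Mb (x axis, dashed line at 0). Circles are peaks also listed in WT Nutlin-3a, crosses are in the WT DMSO list alone, and triangles are other peaks. Circles lie mostly near 1 left of the line and nearer 1.5 right of it, while many crosses right of the line stay near 1.

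Over the 3 gained segments together, WT DMSO gave a larger share of regions of its own than elsewhere. Of the 225 gained regions 59 (26.2%, Wilson 95% interval 20.9 to 32.3) were in the WT DMSO list alone, against 216 of 1343 (16.1%), a difference of 10.1 percentage points (Newcombe 95% interval 4.44 to 16.5). By segment these were 29 of 107 regions on chromosome 8, 16 of 37 on chromosome 10 and 14 of 81 on chromosome 17. Their median fold was 2.49 against 3.08 at the 114 gained peaks present in both WT lists, their pileup 43 against 74.5, and 46 of 59 (78.0%) had no neighbour within 12500 bp, against 42 of 114 (36.8%). The same contrast held on the rest of the autosomes, where DMSO-only peaks had a median fold of 2.85 against 3.53 at shared peaks, and 153 of 216 (70.8%) against 284 of 692 (41.0%) had no neighbour.

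Their background lay near that of the rest of the autosomes. It had a median of 15.9 against 23.9 at the shared gained peaks, and 28 of 59 (47.5%) lay below the median of the rest of the autosomes, against 5 of 114 (4.39%). On the rest of the autosomes the same classes had 14.2 and 16.7, with 163 of 216 (75.5%) and 293 of 692 (42.3%) below that median. By segment, DMSO-only peaks had medians of 15.9 on chromosome 8 (14 of 29 below), 15.1 on chromosome 10 (10 of 16) and 18.3 on chromosome 17 (4 of 14). The 50 gained regions in the WT Nutlin-3a list alone differed from the DMSO ones in this respect. Their median background was 21.7, and 5 of 50 (10.0%) lay below the median of the rest in that list. The same class on the rest of the autosomes had a median of 15, with 199 of 332 (59.9%) below. These 50 were 22.2% of the gained regions, beside 24.7% on the rest, a difference of -2.50 points (-7.98 to 3.78). The DMSO-only regions ran together in places, which were picked out after their values were seen. They made up 8 of 9 regions at 130 to 135 Mb on chromosome 10, from 130296398 to 131319398, 6 of 6 at 80 to 85 Mb and 6 of 8 at 135 to 140 Mb on chromosome 8, and 6 of 10 at 75 to 80 Mb on chromosome 17.

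**Figure D5:**
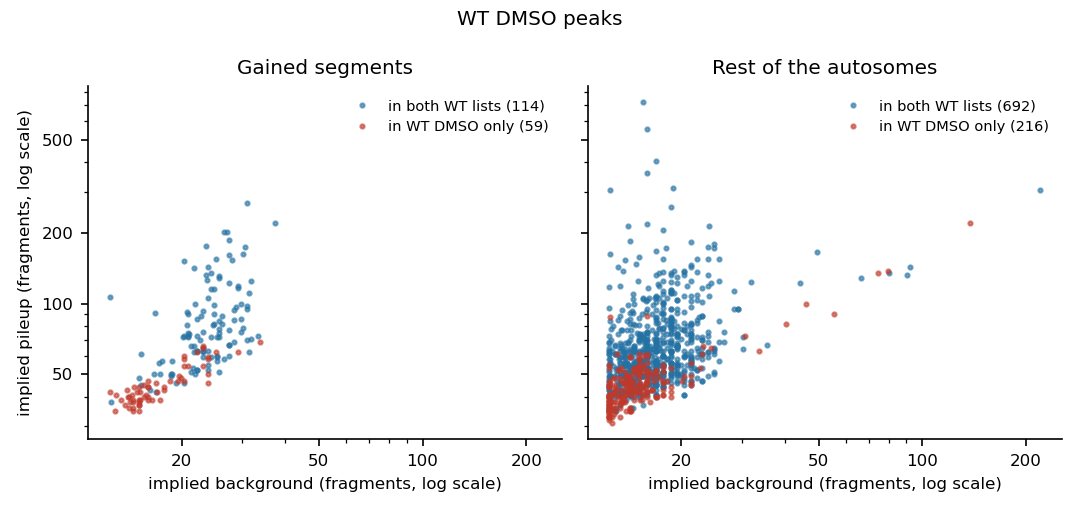
Implied background (x axis, fragments, log scale) and pileup (y axis, fragments, log scale) of WT DMSO peaks in both WT lists (blue) and in WT DMSO alone (red), for the gained segments (left, 114 and 59 peaks) and the rest of the autosomes (right, 692 and 216). On the left the blue points sit to the right of most red ones, with median backgrounds of 23.9 and 15.9.

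After Nutlin-3a, WT cells had 54 of 171 gained peaks (31.6%) that overlapped no WT DMSO peak. Over all autosomes the share was 35.1%, and against the rest the gained share differed by -4.08 points (-11.2 to 3.75), an interval that includes 0. In the MED14-AID water lists the Nutlin-only share was 21 of 63 (33.3%), beside 30.9% over all autosomes and 30.6% on the rest. In the opposite direction, 61 of 175 gained WT DMSO peaks (34.9%) had no partner after Nutlin-3a against 24.7% of the rest, a difference of 10.2 points (2.89 to 17.9). This is the same excess as that of the DMSO-only regions above, seen by peak. By segment the share was 31 of 90 (34.4%) on chromosome 8 and 16 of 28 (57.1%) on chromosome 10. The chromosome 17 segment showed no excess, with 14 of 57 (24.6%), a difference of -0.139 points (-9.91 to 12.7).

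With water, the MED14-AID line listed few of the WT DMSO sites on the chromosome 10 and 17 segments. Of the gained WT DMSO peaks, 46 of 175 (26.3%) overlapped a water peak, beside 33.2% over all autosomes and 34.5% on the rest, a difference of -8.21 points (-14.9 to -0.609). The chromosome 8 segment had 36 of 90 (40%), the chromosome 10 segment 4 of 28 (14.3%) and the chromosome 17 segment 6 of 57 (10.5%, 4.91 to 21.1). The same order of chromosomes 8 and 17 was seen after Nutlin-3a, where 37 of 81 (45.7%) and 9 of 69 (13.0%) of the WT peaks overlapped a water + Nutlin-3a peak. The chromosome 10 segment had 5 of 21 (23.8%). Over the 3 segments this share was 51 of 171 (29.8%) against 360 of 1074 (33.5%) on the rest. That difference of -3.69 points had an interval of -10.7 to 4.05, which includes 0. For the 3 segments together the WT DMSO difference reversed when only peaks with a −log10 q of at least 10 were used, to 6.45 points (-5.21 to 19.1), and it was -0.596 points without the chromosome 17 segment. By region, 31 of the 55 gained regions found in both WT lists and in no other list lay on chromosome 17. The 55 made up 24.4% of the 225 gained regions, beside 292 of 1343 (21.7%) on the rest. The interval of this difference of 2.70 points was -2.94 to 9.08, so no excess of this class on the gained segments was detectable.

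Auxin removed most listed peaks of the gained segments. Without Nutlin-3a, 52 of 55 gained water peaks (94.5%) overlapped no auxin peak, beside 90.4% of all autosomal peaks of that list. The kept share was 3 of 55 (5.45%, 1.87 to 14.9) against 41 of 403 (10.2%, 7.59 to 13.5) on the rest, and the difference of -4.72 points had an interval of -9.62 to 5.03. With Nutlin-3a, 57 of 63 (90.5%) were lost, beside 90.9% of all autosomal peaks. The kept share was 6 of 63 (9.52%, 4.44 to 19.3) against 41 of 451 (9.09%), a difference of 0.433 points (-5.48 to 10.4). Both lost shares were thus near the background of their list, and no difference in loss was detectable with these counts. Among the strongest 20% of the water peaks by −log10 q, 2 of 15 gained and 25 of 76 other peaks were kept without Nutlin-3a, and 4 of 16 and 27 of 85 with it.

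Of the 225 regions, 8 (3.56%) were in an auxin list, against 75 of 1343 (5.58%). The interval of this difference of -2.03 points was -4.24 to 1.45, which includes 0. The 3 present in all 6 lists were those at 128230681 and 126691246 on chromosome 8 and at 124713483 on chromosome 10. The other 5 (2.22%, against 25 of 1343 or 1.86% on the rest) were listed with auxin + Nutlin-3a and not with auxin alone. They are the regions at 94884904 and 130718818 on chromosome 8, 134145055 on chromosome 10, 57969971 on chromosome 17, and 73257347 to 73258211 on chromosome 17, which had folds of 3.49 and 3.66 in the WT lists and 3.91 with auxin + Nutlin-3a. The opposite class, regions with auxin but not with auxin + Nutlin-3a, had 0 of 225 gained members and 20 of 1343 (1.49%) on the rest, a difference whose interval of -2.29 to 0.269 points includes 0. The highest fold of a gained peak with auxin was 3.84, which ranked 44 of 53, while the rest of the autosomes reached 46.1 in that list.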

How the data were processed

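MED1 was measured by ChIP-seq in HCT116 cells, with an input for each of the 8 MED1 libraries. The submitters' processing notes name Bowtie 0.12.9, MACS2 2.1.2 and the build hg19. Settings are not given in the sources used here. The deposited fold of a peak is a ratio over the caller's background, the deposited −log10 values are those of its p and q, the deposited score is 10 times −log10 q cut to a whole number, and the summit position, in bp from the peak start, is the authors' as well. Read counts were not used here.

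Chromosome lengths came from GenomeInfoDb 1.38.1 (R 4.3.3). Regions were assigned by their start. Pileup and background were solved from fold and p with 1 scale factor per list (0.777 to 1), to within 0.001 in −log10 p. 1 peak had another solution. On data simulated with the same formulas, the background was recovered to within 1% for 879 of 879 peaks. This checks the solving only and not whether the caller used these formulas. For overlaps, bedtools 2.31.1 gave the same number in all 60 counts compared. Shares have Wilson and differences Newcombe 95% intervals, densities exact Poisson ones, and density ratios exact conditional binomial ones. The interval of a difference in median fold is a binomial rank interval of the gained median, with the median of the rest held fixed. No test over regions was made, since peaks of a list are not replicates. Scripts ran in Python 3.11.15 with scipy 1.17.1, pandas 2.3.3, numpy 2.4.6 and, for plots, matplotlib 3.10.9.

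Named positions are, per segment, the 5 regions with the highest fold in any list, those in an auxin list, the clusters with most regions and the regions nearest the bounds. The members, rule and alternatives were chosen with earlier results of these data known. Positions are hg19 and 1-based. An hg19 sequence and annotation were not used here, so no gene was assigned and no sequence is printed.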

Additional observations from a re-analysis of the deposited data

Results flagged for a closer look

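The peak density of the chromosome 10 segment relative to the rest of the autosomes lay above 1 in both WT lists, at 2.41 (DMSO) and 1.54 (Nutlin-3a), and below 1 in both MED14-AID lists without auxin, at 0.784 (water) and 0.875 (water + Nutlin-3a). The 2 lines thus lay on opposite sides, and the difference was not tested. The counts behind these ratios are 28, 21, 4 and 5 peaks, and the interval of each ratio except that of WT DMSO includes 1. With auxin, the ratios were 1.58 from 1 peak and, after Nutlin-3a, 2.72 from 2 peaks.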

How the results depend on the processing

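Each result was recomputed under other settings, 167 values in all, of which 127 moved by less than their counting interval, 35 moved beyond it and 5 changed sign from a difference whose interval left out 0. Differences whose interval included 0 also changed sign in some settings, with ranges of -6.76 to 3.41 points for the kept share with Nutlin-3a and -10.99 to 1.01 points for the Nutlin-only share in WT. All region and peak density ratios stayed above 1 in the settings run. With only peaks of −log10 q of at least 10 the region ratio was 2.24 and that of WT DMSO peaks 2.66, and with at least 5 the latter was 2.73. Without the chromosome 17 segment the WT Nutlin-3a ratio was 2.29, and without chromosome 8 the water ratios were 1.16 and 1.28. Without chromosome 8 from 125 to 135 Mb, chosen with the data in view, the ratios were 2.37 for regions and 2.62, 2.11, 1.03 and 1.22 for WT DMSO, WT Nutlin-3a, water and water + Nutlin-3a.

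The difference in median fold was -0.334 in WT DMSO with −log10 q of at least 10, with an interval of -0.709 to 0.142 that includes 0. With water, the reported difference was -0.225 (-0.726 to 0.110). It was -0.868 (-1.35 to -0.120) with −log10 q of at least 10 and -0.997 (-1.50 to -0.662) against the other parts of the same chromosomes. Without chromosome 8 it was -0.605 (-0.913 to -0.219). Moving the bounds by 5 Mb, leaving out chromosome 10 or 17, or −log10 q of at least 5 gave water intervals that include 0. With 1 background per list, chosen with the data in view, the difference was 0.354, 0.578, 1.28 and 0.798 in the 4 lists. This setting only rescales the pileup, so its sign is that of the pileup difference.

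The background ratio stayed between 1.28 and 1.69. Against the same chromosomes it was 1.47 in WT DMSO, 1.53 in WT Nutlin-3a and 1.69 with water. Without chromosome 8 it was 1.31 in WT DMSO, 1.37 with water and 1.39 with water + Nutlin-3a, and without chromosome 17 it was 1.53 in WT Nutlin-3a. With −log10 q of at least 10 it was 1.56, 1.53 and 1.60 in WT DMSO, WT Nutlin-3a and water, and with at least 5 it was 1.47 in WT DMSO. Without 125 to 135 Mb it was 1.28 and 1.41 in the WT lists.

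The difference in kept share without Nutlin-3a was -9.70 points against the same chromosomes, -12.2 with −log10 q of at least 10 and -19.6 in the strongest 20%, each with an interval that includes 0, and with Nutlin-3a it was -6.76 in the strongest 20%. The difference in WT DMSO peaks listed with water was -22.7 points without chromosome 8, -19.5 without 125 to 135 Mb and -0.596 without chromosome 17. It changed sign with −log10 q of at least 10, applied to both lists (6.45) or, chosen with the data in view, to the first one (5.09), and the cause was not tested. The Nutlin-only share in WT moved beyond its interval in 0 settings.

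No paired analysis was possible because each WT list joins both replicates and each MED14-AID condition has 1 library, and leaving out a replicate could not be run for the same reason. Library depth is unknown, and the number of listed peaks was not adjusted for it. The auxin lists hold 3 and 8 gained peaks, which limits every share made from them. The segment bounds are not measured breakpoints.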
